A study of Homo sapiens with 3 samples.

Results

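The genes described here are 8 genes that mark peripheral sensory neurons and related peripheral lineages: ISL1, POU4F1, POU4F2, POU4F3, PHOX2A, PRPH, TLX3 and RET. They were chosen by name, and for each one every accessible region with a summit inside the gene or within 50 kb of its outer ends was taken. This gave 32 regions with 80 summits, out of 65234 regions with 145092 summit entries in the whole list, and 8 of the 20033 protein-coding genes in the RefSeq table. The data are ATAC-seq, in which the Tn5 transposase inserts sequencing adapters into open chromatin. The cells were neurons of the line KOLF2.1J-hNGN2, made from the human induced pluripotent stem cell line KOLF2.1J, an established line, and carrying the proneural factor NGN2, after 14 days of differentiation. There were 3 biological replicates in 1 group, with no control group. They come from 1 parental line, and the labels do not say what drives NGN2. The authors combined the replicates into 1 list, so no value carries a standard deviation between replicates, no replicate could be left out, and every comparison is between places in the genome.

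ISL1 (a LIM-homeodomain factor) and POU4F1 (BRN3A) are switched on in newly born sensory neurons of the dorsal root and cranial ganglia, where they act together to set the sensory programme. The neurogenins, NGN2 among them, act before them in the embryo to commit neural crest and placode cells to that fate. The same genes have other uses: ISL1 in motor neurons, POU4F2 in retinal ganglion cells, POU4F3 in inner ear hair cells, PHOX2A and RET in autonomic neurons. An accessible region shows that DNA is open to the transposase and is not a measure of RNA.

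The labelled cell type was first checked on markers of neurons in general. All 10 pan-neuronal genes (among them MAP2, STMN2 and SYT1) had a region summit within 1 kb of a start, against 70.6% of all protein-coding genes. The share was 7 of 9 for cortical markers, 3 of 5 for neural crest and Schwann cell markers and 2 of 4 for glial markers. At the outermost start alone the counts were 8 of 10, 7 of 9, 1 of 5 and 2 of 4 in the same order. The background for that start was 68.8% of protein-coding genes with a listed start. These counts were not tested against each other.

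Of the 8 sensory identity genes, 5 had a region summit within 1 kb of the outermost RefSeq start: ISL1, POU4F1, POU4F2, POU4F3 and TLX3. The same was true of 68.8% of the 15841 protein-coding genes for which the table gives a start, so the count of 5 of 8 is near the background. Counting every listed start of a gene added RET, which made 6 of 8 against a background of 73.4%. PHOX2A and PRPH had no region at any listed start. What differed among the 8 was the strength of the opening and where it lay, which the plot of regions along each gene shows.

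**Figure D1:**
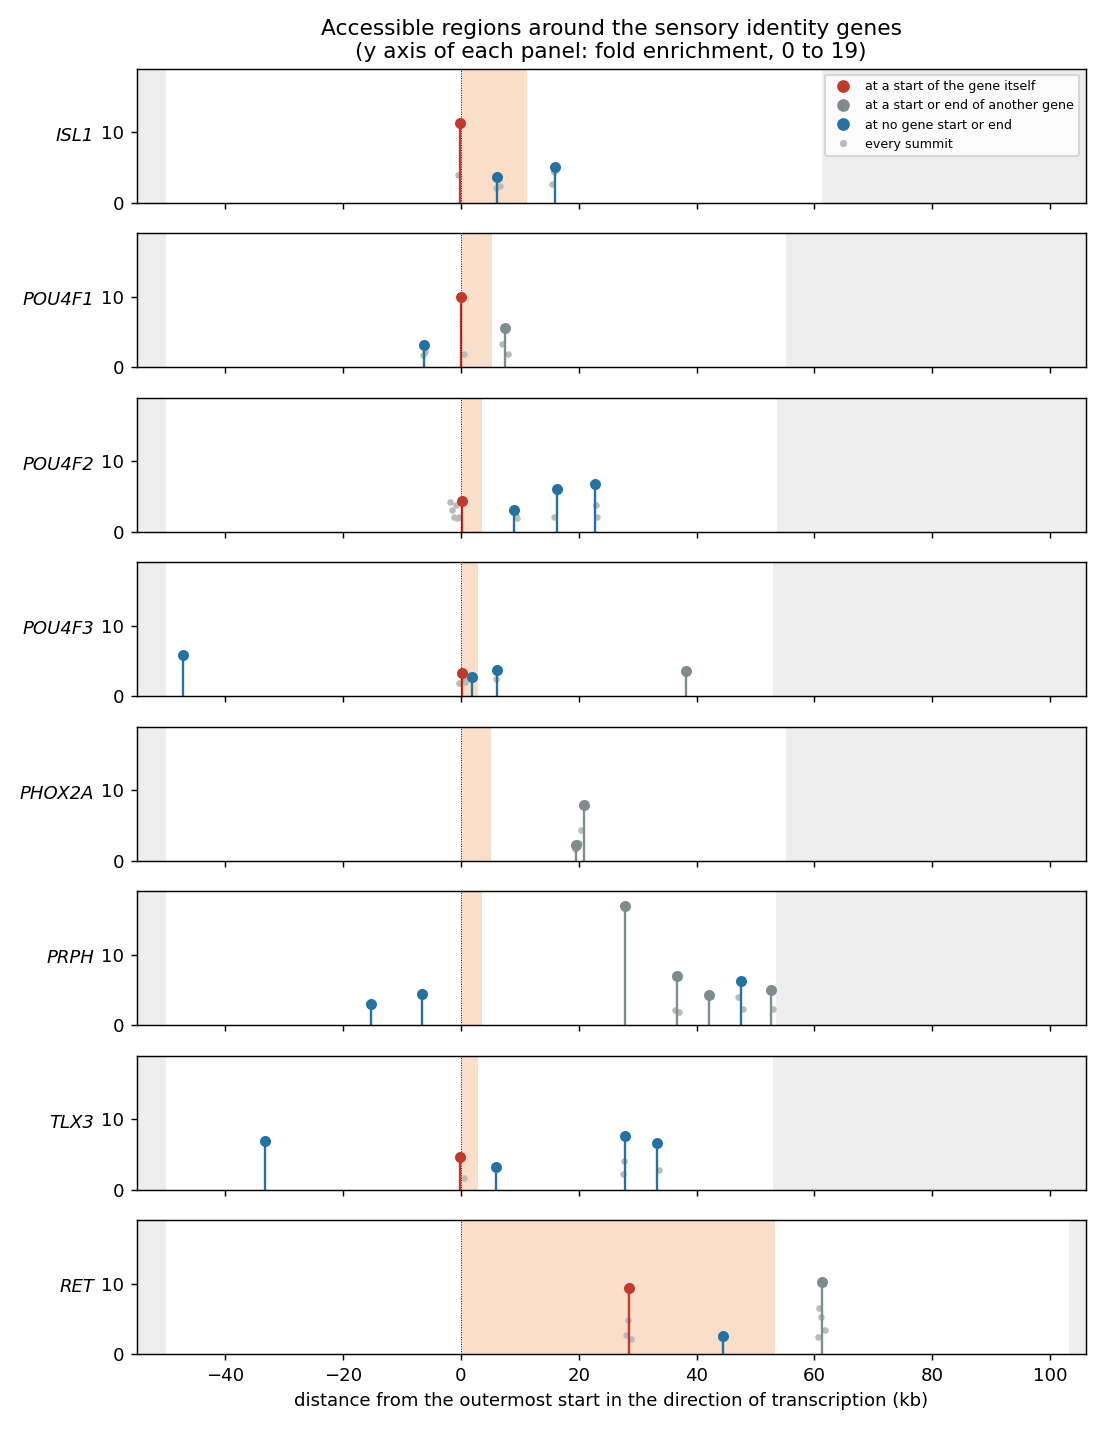
Accessible regions within 50 kb of each gene. The x axis is the distance in kb from the outermost start in the direction of transcription, and the y axis of each panel is the authors' fold enrichment from 0 to 19. Large points with stems are the strongest summit of each region, coloured by place, and small grey points are all summits. Shaded orange is the gene body, and grey margins lie outside the window. ISL1, POU4F1, POU4F2, POU4F3 and TLX3 have a red point at 0 kb. The red point of RET lies 28.6 kb inside the gene, and PHOX2A and PRPH have none.

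ISL1, on chromosome 5 (GRCh38, chr5:51383448-51394730, plus strand), had the strongest start of the set. The region chr5:51382660-51383833 spanned its start, with the strongest summit 121 bp upstream at a fold enrichment of 11.3. Fold enrichment is the authors' ratio of tags at the summit to a background count. The lowest background in the list was 29.2 tags, a value shared by regions of POU4F2, POU4F3 and TLX3. The tag count at the ISL1 summit, recovered from the deposited ratio and p-value, was 890 (exact Poisson 95% interval 832 to 950, counting error only). Its background was 78.2 tags. ISL1-DT, a divergent long non-coding RNA, starts at the same place, so this region cannot be assigned to 1 of the pair. The region held a second summit 545 bp upstream, with a fold enrichment of 3.88. Among 10895 protein-coding genes with an accessible outermost start, ISL1 stood at percentile 53.5 by fold enrichment and 44.3 by tags, the middle of the distribution.

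The other regions of ISL1 were weak. A region inside the gene, chr5:51389064-51390391, had 4 summits, the strongest 6.19 kb from the start at 3.69 with 158 tags. A further region, chr5:51398673-51399990, lay 15.99 kb from the start and 4.71 kb beyond the end of the gene, with 3 summits, a fold enrichment of 4.98 and 168 tags. No protein-coding gene other than ISL1 lies within 50 kb. The next summit of the list was 93.5 kb beyond the gene.

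The POU4F genes encode 3 POU-homeodomain factors, also called BRN3A, BRN3B and BRN3C, and their starts differed. POU4F1 (chr13:78598362-78603552, minus strand) had a region at its start, chr13:78602910-78604107, with the summit 70 bp upstream. The fold enrichment there was 9.88, with 880 tags (interval 823 to 940). POU4F2 (chr4:146638893-146642474, plus strand) had a fold enrichment of 4.41 with 453 tags (interval 412 to 497), 152 bp inside the gene. POU4F3 (chr5:146338839-146341728, plus strand) had 3.34 with 184 tags (interval 158 to 213), 130 bp inside the gene, in chr5:146338302-146339771. The 3 intervals for the tag counts do not overlap, and by tag count the order was POU4F1, POU4F2, POU4F3. These intervals cover counting error only and hold no spread between replicates. The percentiles by fold enrichment among accessible starts were 42.3, 7.15 and 2.39 in the same order.

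POU4F2 had a broad opening with a low fold enrichment for an accessible start. Among accessible starts it stood at percentile 18.9 by tags and 99.2 by width. Its start region, chr4:146636892-146639444, was 2553 bp wide and held 8 summits, which placed it at percentile 99.8 of all regions for width and for number of summits. The summits ran from 1801 bp upstream to 375 bp inside the gene. Their fold enrichments lay between 1.98 and 4.41, and both summits inside the gene collected 453 tags. The background at its strongest summit was 102.0 tags, above the 78.2 tags at ISL1. For comparison, the start region of POU4F1 was 1198 bp wide with 2 summits, 9.88 at the start and 1.91 at 532 bp inside the gene. The median width at accessible starts of protein-coding genes was 1331 bp.

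Beyond its start, POU4F2 had 3 regions, all downstream and all at no gene start or end. They lay 8.95 (chr4:146647295-146648581), 16.4 and 22.7 kb from the start, with fold enrichments of 3.11, 6.11 and 6.78 and tag counts of 130, 249 and 204. No other annotated gene lies within 50 kb of POU4F2. The regions at 16.4 kb (chr4:146654490-146655719) and 22.7 kb (chr4:146661316-146662121) thus exceeded the start in fold enrichment, while the start had the most tags. Their backgrounds were 39.9 and 29.2 tags, against 102.0 at the start.

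POU4F1 had 2 further regions. One lay 6.20 kb upstream (chr13:78609395-78610087, fold enrichment 3.06, 156 tags), nearer to OBI1, a gene for a ubiquitin ligase, than to POU4F1. The other lay 7.45 kb downstream of the start, beyond the gene (chr13:78595520-78596692, 5.49, 261 tags), at the start of the long non-coding RNA LOC780529. POU4F3 had 4 further regions with fold enrichments between 2.73 and 5.89. The region chr5:146340407-146340807 lay 1.86 kb downstream of its start, inside the gene, with 2.73 and 164 tags. The region chr5:146344638-146345089 lay 6.11 kb downstream, with 3.77 and 169 tags. The region chr5:146376856-146377317 lay 38.2 kb downstream at the start of LOC105378213, with 3.51 and 105 tags. The last one, chr5:146291475-146291960, lay 47.2 kb upstream. It had the highest fold enrichment of the POU4F3 window and lay inside the read-through gene RBM27-POU4F3, nearer to RBM27. Its fold enrichment of 5.89 rested on 177 tags, a count within the interval for the POU4F3 start. The background was 29.2 tags, the lowest value in the list, against 54.5 at the start.

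TLX3, a homeobox factor that promotes glutamatergic fate in sensory relay neurons, showed the reverse order of ISL1 by fold enrichment but not by tags. On chromosome 5 (chr5:171309248-171312139, plus strand), the region at its start, chr5:171308827-171309901, had a summit 123 bp upstream with a fold enrichment of 4.64 and 313 tags (interval 279 to 350). It stood at percentile 8.36 by fold enrichment and 11.4 by tags among accessible starts. Some regions at no gene start or end, pseudogenes not counted, had a higher fold enrichment. They reached 7.66 at 27.9 kb downstream (chr5:171336408-171337553, 240 tags), 6.59 at 33.3 kb downstream (chr5:171342425-171343235, 198 tags) and 6.93 at 33.2 kb upstream (chr5:171275613-171276599, 228 tags). Their backgrounds were 30.5, 29.2 and 32.0 tags in the same order, against 66.6 at the start. The upstream one lies inside RANBP17, a nuclear transport receptor gene. The fourth, chr5:171314821-171315683, 6.01 kb downstream, had 3.15 with 176 tags. In tags the start remained the highest, and its interval, for counting error only, overlaps with none of the others.

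**Figure D2:**
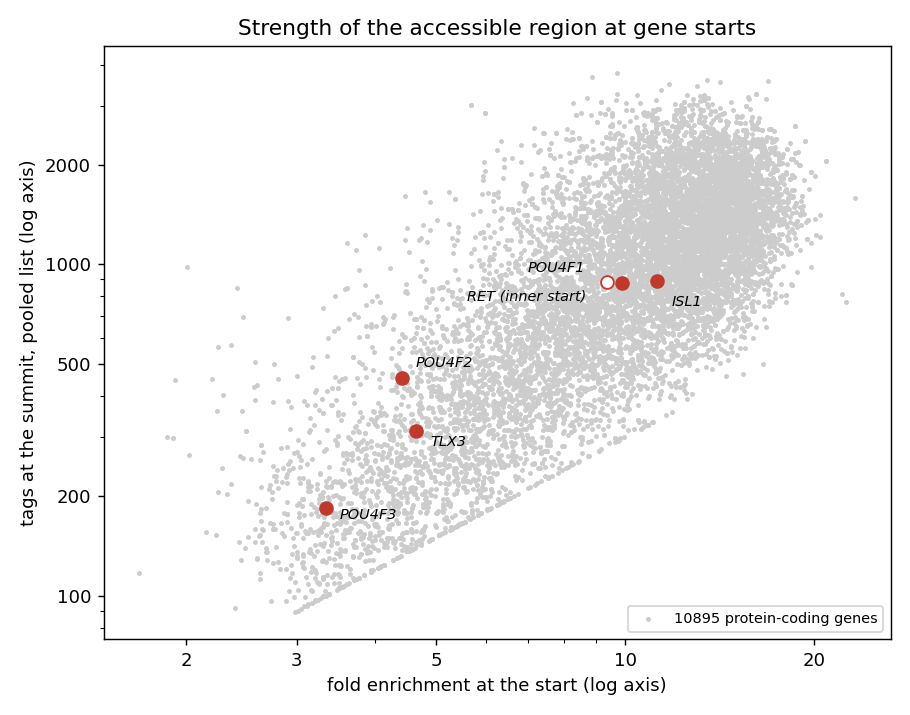
Strength of the region at gene starts, as fold enrichment (x axis, log) against tags at the strongest summit (y axis, log). Grey points are 10895 protein-coding genes with an accessible outermost start, and filled red points are the 5 sensory identity genes among them. The open red point is the strongest summit of the region at the inner start of RET, 864 bp inside that start. ISL1, POU4F1 and the inner start of RET lie close together, near 880 tags, and POU4F2, TLX3 and POU4F3 lie in the lower left.

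RET, the receptor tyrosine kinase for the GDNF family of growth factors, was open at an inner start and not at its outermost one. RET spans chr10:43077069-43130351 on the plus strand, and RefSeq lists a further start at 43104765, 27.7 kb inside. The nearest summit to the outermost start was 27.96 kb away. The region chr10:43104604-43106117 spanned the inner start. Its nearest summit was 262 bp from that start, with a fold enrichment of only 2.68 and 249 tags. Its strongest summit lay 864 bp inside that start, with a fold enrichment of 9.37 and 883 tags (interval 826 to 943). The tag interval overlaps with those of ISL1 and POU4F1. Set among the accessible outermost starts of other genes, the fold enrichment of this strongest summit would stand at percentile 38.5.

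RET had 2 other regions. A weak one inside the gene, chr10:43120842-43121935, had a fold enrichment of 2.62 and 137 tags. The strongest of the window, chr10:43137488-43139211, had 10.2 and 1139 tags and held 5 summits. It lies at the shared start of CSGALNACT2, a chondroitin sulfate enzyme gene, and its divergent transcript, 8.08 kb beyond the end of RET.

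PRPH encodes peripherin, an intermediate filament of peripheral neurons, and had the most regions but none at its start. The gene spans chr12:49295147-49298686 on the plus strand, and the nearest summit to its start was 6.66 kb upstream, in chr12:49288195-49289245, with a fold enrichment of 4.40 and 170 tags. Of the 7 regions in the window this was the only one with PRPH as the nearest protein-coding gene. A second upstream region, chr12:49279512-49280258, 15.3 kb away, had 2.95 and 121 tags. The other 5 lay 27.9 to 52.7 kb downstream, among TROAP, C1QL4 and DNAJC22. The strongest region of all 32, chr12:49322655-49323594, is one of these: it lies at an end of TROAP, a mitotic spindle gene, with a fold enrichment of 16.9 and 1559 tags. Of the others, chr12:49331173-49332308 lay 36.7 kb downstream between TROAP and C1QL4, with 6.99 and 390 tags. The region chr12:49336780-49337375, at an end of C1QL4, had 4.30 and 378 tags, and chr12:49347632-49348163, at an end of DNAJC22, had 5.02 and 414 tags. A region 47.5 kb downstream, chr12:49341997-49343151, was at no gene start or end and had 6.25 and 918 tags, the highest tag count among the 17 regions of that kind.

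PHOX2A, a homeobox factor of noradrenergic and other autonomic neurons, had no region of its own. The gene spans chr11:72239077-72244176 on the minus strand, and the nearest summit to its start was 19.3 kb away, which is percentile 87.1 of that distance among protein-coding genes. Its 2 regions, chr11:72222907-72224463 (7.93, 827 tags) and chr11:72224614-72225019 (2.23, 237 tags), lie at starts of INPPL1, a phosphatase gene whose far end overlaps with that of PHOX2A. For PHOX2A no region was left when only those nearest to it were kept. The absence of a region says that none passed the authors' threshold and not that the DNA was closed.

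Over all 8 genes, the median number of regions was 3.5, against 5 for all protein-coding genes. PRPH had 7, POU4F3 and TLX3 had 5, POU4F2 had 4, ISL1, POU4F1 and RET had 3, and PHOX2A had 2. These genes are mostly short, between 2.89 and 53.3 kb against a median of 24.1 kb. Among genes within 1.5 times of its own length, each stood between percentile 21.6 (PHOX2A) and percentile 79.8 (PRPH). At least 3 regions were found for 7 of the 8, against a background of 79.1%. Regions at no gene start or end were found for 7 of 8 as well, against 83.6%, and at least 3 of them for 4 of 8, against 44.6%. In number of regions the set was thus near the background.

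**Figure D3:**
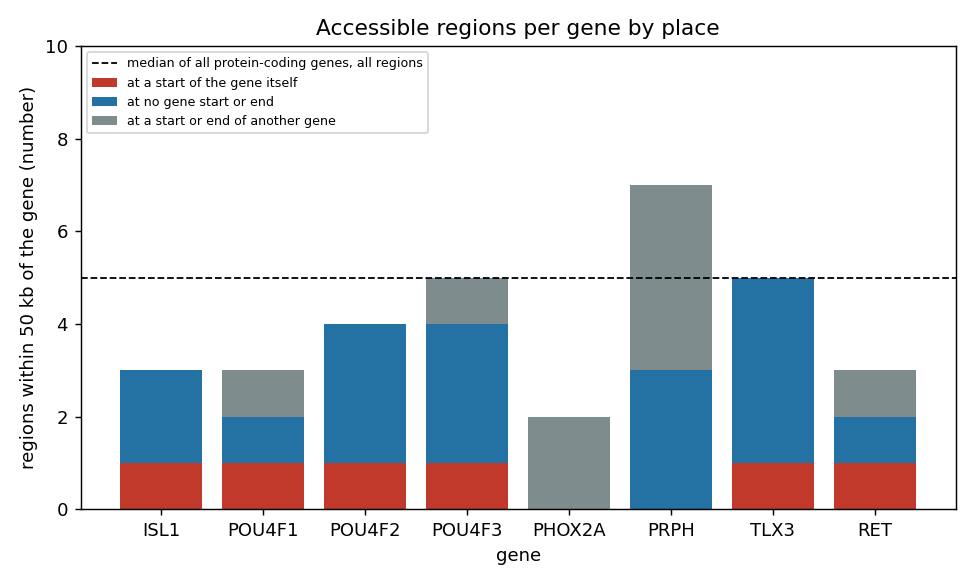
Number of accessible regions within 50 kb of each gene (y axis), split by place. Red is a start of the gene itself, blue is no gene start or end, grey is a start or end of another gene, and the dashed line is the median of 5 regions over all protein-coding genes. Of the 7 regions of PRPH, 4 are grey, and both regions of PHOX2A are grey. TLX3 has 4 blue regions.

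By place, 6 of the 32 regions lay at a start of the gene itself, 9 at a start or end of another gene and 17 at neither. A gene for which the table gives no strand was counted at both ends. Starts and ends of pseudogenes were not counted. The 17 were 53.1% of the regions, against 73.6% of all regions in the list. The whole list is not limited to windows around genes, so these shares are not measured alike. Within 50 kb of a gene, the median number of such regions was 2.5 for the 8 genes and 2 for all protein-coding genes. The median fold enrichment of the 17 was 4.40, with a range of 2.62 to 7.66, against 5.07 for all such regions. Their median tag count was 170, against 197. Of the 17, 12 lay downstream of the start and 5 upstream. The window covers 50 kb upstream of the start, but the gene body plus 50 kb downstream, so the sides are unequal. A fold enrichment of at least 10 was reached by 3 of the 32 regions (ISL1 at its start, CSGALNACT2 in the RET window and TROAP in the PRPH window), against 15.7% of all regions. The 5 genes open at the outermost start had a median fold enrichment of 4.64 there, against 10.9 over all accessible starts, whose quartiles were 7.48 and 13.6. POU4F2, POU4F3 and TLX3 fell below the lower quartile, and ISL1 and POU4F1 between the quartiles.

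A weak region often lay close to the start, a pattern noticed after the values were seen. A region at no gene start or end had a summit 5 to 10 kb from the outermost start in 6 of the 8 genes: ISL1, POU4F1, POU4F2, POU4F3, PRPH and TLX3. Over protein-coding genes with a listed start the share was 16.0%. All 5 of the genes open at that start were among them, against 16.1% of protein-coding genes with an accessible outermost start. The 6 regions had fold enrichments of 3.06 to 4.40 and 130 to 176 tags. They lay upstream in POU4F1 and PRPH and downstream in the other 4. The distance range was chosen on these genes, so the count is a description without a test.

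The outermost summit inside the window was that of PRPH, 49.4 kb beyond the gene with a fold enrichment of 2.24, and the nearest one outside was that of POU4F1, 54.6 kb beyond the gene with 1.91.

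Promoter sequences were then set beside these starts. The 250 bases before the start are shown for the strongest starts (ISL1, POU4F1), for the start with the lowest GC content (TLX3), for the starts without a region (PHOX2A, PRPH, RET outermost) and for the open inner start of RET. They are RefSeq sequences of GRCh38.p14, written 5′ to 3′ on the strand of the gene. Capitals mark matches, on either strand, to the 7 words searched: CAGATG and CAGCTG (E-box words of neurogenic bHLH factors), TAATTA (homeodomain), ATGCAAAT (POU octamer), TATAAA (the TATA box), CCAAT (bound by NF-Y) and GGGCGG (bound by SP1). Overlapping matches run together.
ISL1 (chr5:51383198-51383447, plus strand): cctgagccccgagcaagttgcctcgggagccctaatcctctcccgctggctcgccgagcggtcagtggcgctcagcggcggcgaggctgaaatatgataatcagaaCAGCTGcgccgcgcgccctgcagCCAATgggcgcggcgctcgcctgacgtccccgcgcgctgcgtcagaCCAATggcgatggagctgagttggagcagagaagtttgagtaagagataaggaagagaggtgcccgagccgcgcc
POU4F1 (chr13:78603553-78603802, minus strand): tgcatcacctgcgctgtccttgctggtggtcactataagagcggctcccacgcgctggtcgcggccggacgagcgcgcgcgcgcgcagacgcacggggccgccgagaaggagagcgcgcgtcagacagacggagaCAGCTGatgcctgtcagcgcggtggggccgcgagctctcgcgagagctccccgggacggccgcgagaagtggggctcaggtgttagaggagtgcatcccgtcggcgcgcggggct
TLX3 (chr5:171308998-171309247, plus strand): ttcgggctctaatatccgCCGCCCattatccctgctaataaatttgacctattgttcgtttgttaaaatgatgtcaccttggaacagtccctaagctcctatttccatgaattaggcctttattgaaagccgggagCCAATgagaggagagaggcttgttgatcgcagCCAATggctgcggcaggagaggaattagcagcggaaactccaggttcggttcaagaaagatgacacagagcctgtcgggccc
PHOX2A (chr11:72244177-72244426, minus strand): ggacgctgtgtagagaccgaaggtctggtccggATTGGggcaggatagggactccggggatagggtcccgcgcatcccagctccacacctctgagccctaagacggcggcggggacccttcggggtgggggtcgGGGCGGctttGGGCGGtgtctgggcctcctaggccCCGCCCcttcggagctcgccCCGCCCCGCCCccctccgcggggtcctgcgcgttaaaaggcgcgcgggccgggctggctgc
PRPH (chr12:49294897-49295146, plus strand): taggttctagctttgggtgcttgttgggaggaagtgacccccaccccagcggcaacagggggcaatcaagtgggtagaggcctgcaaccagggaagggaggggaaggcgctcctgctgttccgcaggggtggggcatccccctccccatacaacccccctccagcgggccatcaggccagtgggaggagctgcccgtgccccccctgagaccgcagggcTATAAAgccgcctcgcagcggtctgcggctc
RET outermost (chr10:43076819-43077068, plus strand): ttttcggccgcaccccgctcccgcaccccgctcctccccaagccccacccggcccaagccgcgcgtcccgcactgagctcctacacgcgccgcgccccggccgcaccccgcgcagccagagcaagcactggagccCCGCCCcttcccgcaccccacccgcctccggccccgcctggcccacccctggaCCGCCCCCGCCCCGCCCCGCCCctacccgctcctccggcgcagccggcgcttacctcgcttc
RET inner (chr10:43104515-43104764, plus strand): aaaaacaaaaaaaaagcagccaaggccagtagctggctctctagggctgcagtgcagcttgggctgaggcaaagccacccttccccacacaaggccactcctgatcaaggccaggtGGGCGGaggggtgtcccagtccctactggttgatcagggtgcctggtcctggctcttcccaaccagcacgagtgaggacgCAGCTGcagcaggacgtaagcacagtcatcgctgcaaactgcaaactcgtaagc

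In the full windows of 300 bases (250 before and 50 after the start), CAGCTG was found in 2 of the 8 outermost promoters. The share was 17.9% of the 35114 promoters in the table, so this count is near the background. These were ISL1, 144 bases before the start, and POU4F1, 115 bases before it, the pair with the strongest starts. The word also stood in the inner promoter of RET, 54 bases before that start. A link between this word and the strength of a start was not tested. CAGATG (14.7% of all promoters), TAATTA (4.84%) and ATGCAAAT (1.77%) were in none of the 8. TATAAA, in 11.5% of promoters, stood 31 bases before the start of PRPH and 30 before that of POU4F3. CCAAT, in 34.6%, was found in ISL1, TLX3 and PHOX2A, and GGGCGG, in 45.0%, in POU4F2, POU4F3, PHOX2A, TLX3 and RET, with 7 copies in PHOX2A and 5 in RET. A match describes these letters only, and no match says only that the word is absent from this window.

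PRPH had the lowest CpG content of the 8. CpG dinucleotides occur near their expected number in CpG island promoters and are depleted elsewhere. The ratio of observed to expected CpG was 0.39 in PRPH, 0.60 in POU4F3, 0.84 in PHOX2A, 0.86 in TLX3, 1.03 in RET, 1.04 in POU4F2, 1.08 in ISL1 and 1.22 in POU4F1. The median of 13816 protein-coding promoters was 0.77, and POU4F1 stood at percentile 99.4. With CpG-rich set at a ratio of at least 0.6 and a GC content of at least 50%, 7 of the 8 were CpG-rich, POU4F3 exactly at the limit, against 63.8% of the 13816 promoters. Across the genome 92.8% of CpG-rich promoters had a summit within 1 kb and 31.8% of the others did. PHOX2A (GC content 73.7%) and the outermost start of RET (78.7%) thus belong to the 7.21% of CpG-rich promoters (636 of 8817) without one. The inner start of RET, which had one, had a ratio of 0.39. The plot of promoter composition shows PHOX2A and RET as crosses among promoters that are mostly open.

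**Figure D4:**
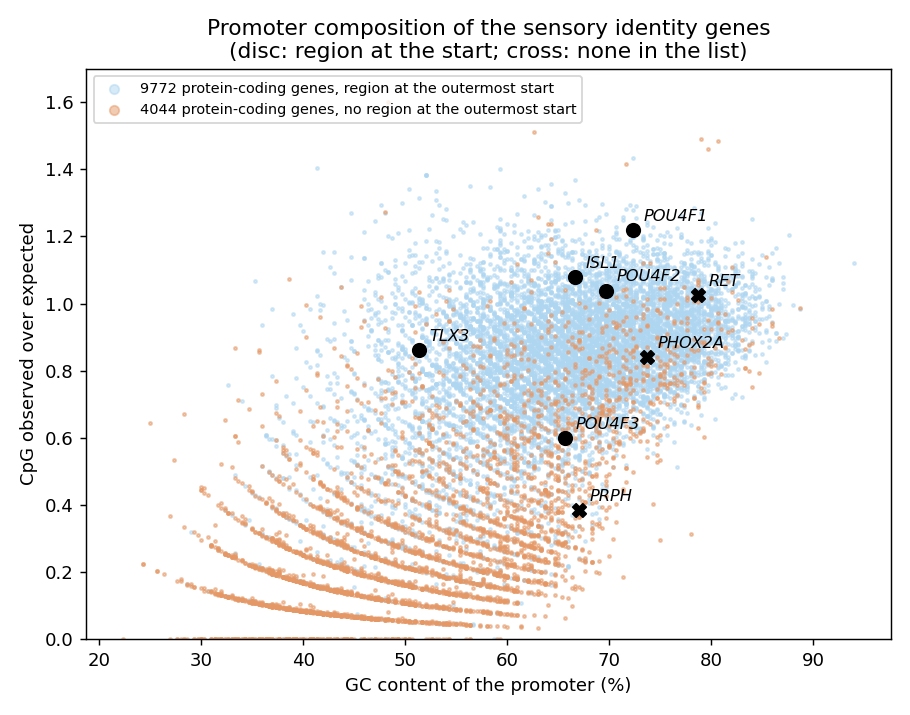
Promoter composition, as GC content in percent (x axis) against the ratio of observed to expected CpG (y axis), over 300 bases at the outermost start. Small points are protein-coding genes with (blue) and without (orange) a region there. Black discs are sensory identity genes with a region and black crosses those without. PRPH lies at a ratio of 0.39, and the crosses of PHOX2A and RET lie at 0.84 and 1.03.

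Related genes were counted in the same way, from lists written from general knowledge. Factors of the sensory lineage (NEUROG1, NEUROD1, RUNX1 and others) had an accessible start in 9 of 14, against 70.6% of protein-coding genes. The most regions lay around NEUROD4, with 10, and none lay around RUNX3, a factor of proprioceptive neurons. Receptors and effectors of sensory neurons had one in 9 of 15. NTRK2, a long gene for a neurotrophin receptor, had 23 regions, and CALCA, the gene for the peptide CGRP, had 1. The ligands and co-receptors of RET had one in 4 of 8: GDNF, NRTN, GFRA1 and GFRA2. Of the co-receptors, GFRA1 and GFRA2 had 5 regions each and GFRA4 had 1. Autonomic genes had an accessible start in 5 of 10, with 10 regions around INSM1, and motor neuron genes in 5 of 6, with 6 around LHX4 and 1 around SLC5A7. No test was made of these counts.

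Paralogs of ISL1 and TLX3 were set beside the genes they resemble. ISL2 was open at its start with a fold enrichment of 4.89 and 497 tags, below ISL1 on both measures. TLX1 was open with 3.28 and 160 tags, below TLX3, and TLX2 had no region at its start but 7 within 50 kb, of which 6 lay at a start or end of a gene.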

How the data were processed

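ATAC-seq peaks of 3 biological replicates were analysed as the 1 combined list the authors deposited, named as the optimal set by irreproducible discovery rate in the labels. The build is hg38, per the submitters' processing notes. The aligner, peak caller and filters are not given in the sources used here. The authors deposited, per summit, a fold enrichment as a linear ratio, a −log10 p value, a score that is a whole number, and a summit position. Entries sharing an interval were treated as 1 region, represented by the summit with the highest −log10 p. Tag counts were recovered from the ratio and the −log10 p (Poisson upper tail, pseudocount 1 on tags and background). All 145092 entries gave a whole number to within 0.001 units of −log10 p. The depth of each replicate is unknown, tags are those of the pooled data, and libraries were amplified by PCR, so intervals (95%, exact Poisson) cover counting error only. Gene ends and promoter sequences came from RefSeq (GRCh38.p14). All 8 genes matched by symbol. Starts were listed for 15841 of 20033 protein-coding genes, and the others were counted at both ends. Percentiles are descriptions, and no test was made, since the list has no value per sample. Every region of the 8 genes is given with its position and values. The genes named from companion lists were those with the most and the fewest regions, and others are examples chosen after their values were seen. Some genes that this rule selects are not reported here. The genes and lists were chosen with earlier results of these data known. Alternatives were windows of 10, 20 and 100 kb, a score of at least 830, fold enrichment above the median, overlap in place of summits, the strongest summit only, nearest genes only, other start windows, all entries and ranking by tags. The code (Python 3.11.15, numpy 2.4.6, scipy 1.17.1, pandas 2.3.3, matplotlib 3.10.9) was tested on simulated data.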

Additional observations from a re-analysis of the deposited data

How the results depend on the processing

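The number of genes with an accessible start was 5 in the report, and ranged from 4 with a score of at least 830, where POU4F3 dropped out, to 6 with any listed start, an alternative chosen after seeing the data. The 32 regions became 17 within 10 kb, 55 within 100 kb, 14 above the median fold enrichment of all regions and 20 when only regions nearest to the gene were kept. The median of 3.5 regions per gene became 6.5 within 100 kb and 9 when all summit entries were counted. Each of these settings admits more or fewer regions by construction. Of 64 recomputed counts for single genes, 42 stayed within 1.5 times of the reported count and 22 did not. PRPH moved most, to 1 within 10 kb and 16 within 100 kb, and POU4F3 kept 1 of its 5 regions at a score of at least 830. PHOX2A had 0 within 10 kb. Ranking by tag count named the same strongest region as fold enrichment for 5 of 8 genes. No paired analysis was possible because there is 1 group, with all replicates merged in 1 list, and leaving out a replicate was not possible either. The words at region summits were not searched, since no genome sequence was used here.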
